A study of Drosophila melanogaster with 2 samples.

Results

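The cytosolic ribosomal protein genes of Drosophila melanogaster encode the proteins of the large and small ribosomal subunits. They were taken by symbol from the protein-coding genes of the Ensembl annotation, as RpL, RpS or RpLP followed by a digit, together with sta, the gene of the small-subunit protein SA. This gave 93 of 13968 coding genes, 54 of the large subunit and 39 of the small one. Genes of the mitochondrial ribosome were left out. Peaks of Ptx1 had been mapped by chromatin immunoprecipitation and sequencing in whole embryos aged 0 to 24 h, of a strain with an insertion that expresses Ptx1 fused to enhanced green fluorescent protein. The labels describe precipitation with an anti-GFP antibody, although their antibody field reads Ptx1. Both libraries are biological replicates of 1 group, and no control sample was analysed here. The embryos were not sorted, so a peak may come from any of their cells.

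Ptx1 is a homeodomain protein of the paired-like class, a family whose bicoid-type members recognise the core TAATCC. Ribosomal protein genes are transcribed in nearly every growing cell, and their products are needed in equal amounts. In Drosophila many of them start transcription at a polypyrimidine TCT initiator instead of a standard initiator. Many housekeeping promoters of the fly carry the DNA replication-related element (DRE, TATCGATA), bound by the factor Dref, or motif 1 (core GGTCACAC), bound by M1BP.

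A gene is called here when a peak summit lay within 1000 bp of one of its annotated transcription start sites. The main list is the conservative one, the peaks of the replicate pair that passed the irreproducible discovery rate (IDR) analysis. Each peak carries a score of strength set by the authors, with no stated unit, and a scaled IDR that rises with agreement between replicates to a maximum of 1000. Offsets are distances from the summit to the nearest start of the gene, negative upstream.

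The promoters below show the sequence around the start in the members on which the results turn. Each runs from 150 bases before the annotated start to 25 bases from it onward, so the start is base 151 of 175 and the last 25 bases are transcribed. Capitals mark the DRE, motif 1 or a TCT initiator within 5 bases of the start. Coordinates are on dm6, 1-based. The first 3 members have a DRE within 10.5 bp of the summit, measured to the middle of the motif. Their summits lay at base 64 in RpL28, base 96 in RpL37-1 and base 85 in RpS25.

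RpL28, chr3L:3222936-3223110, minus strand: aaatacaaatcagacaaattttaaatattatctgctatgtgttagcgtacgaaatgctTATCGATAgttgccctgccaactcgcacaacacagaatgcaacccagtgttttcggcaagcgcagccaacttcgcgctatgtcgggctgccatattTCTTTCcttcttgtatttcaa
RpL37-1, chrX:15139343-15139517, minus strand: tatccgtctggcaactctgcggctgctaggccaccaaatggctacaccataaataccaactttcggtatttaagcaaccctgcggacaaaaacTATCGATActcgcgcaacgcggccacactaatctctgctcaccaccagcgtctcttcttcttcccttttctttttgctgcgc
RpS25, chr3R:11216263-11216437, minus strand: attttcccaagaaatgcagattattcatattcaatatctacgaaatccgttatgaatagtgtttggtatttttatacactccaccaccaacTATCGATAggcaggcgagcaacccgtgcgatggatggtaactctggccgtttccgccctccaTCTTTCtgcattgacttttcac

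RpL27A has motif 1 at the summit instead, 15.5 bp from it. The summit was at base 155, just past the annotated start.

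RpL27A, chr2L:4458340-4458514, minus strand: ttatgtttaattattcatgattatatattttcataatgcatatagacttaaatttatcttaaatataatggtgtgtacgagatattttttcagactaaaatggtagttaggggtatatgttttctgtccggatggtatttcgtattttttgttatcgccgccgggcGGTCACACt

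RpL34b and RpL23A were among the members with the highest scores, and neither motif occurs in these stretches. RpL34a, the paralogue of RpL34b, has a DRE. The summits were at base 27 in RpL34b, base 53 in RpL23A and base 78 in RpL34a.

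RpL34b, chr3R:9401202-9401376, minus strand: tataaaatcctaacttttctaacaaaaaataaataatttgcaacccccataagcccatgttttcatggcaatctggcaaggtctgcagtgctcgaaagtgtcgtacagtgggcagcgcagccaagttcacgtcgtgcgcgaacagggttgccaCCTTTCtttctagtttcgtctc
RpL23A, chr3L:1668630-1668804, minus strand: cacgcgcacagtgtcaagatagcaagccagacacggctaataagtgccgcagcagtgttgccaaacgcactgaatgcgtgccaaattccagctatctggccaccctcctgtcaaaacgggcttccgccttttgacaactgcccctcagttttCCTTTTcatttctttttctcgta
RpL34a, chr3R:26059243-26059417, minus strand: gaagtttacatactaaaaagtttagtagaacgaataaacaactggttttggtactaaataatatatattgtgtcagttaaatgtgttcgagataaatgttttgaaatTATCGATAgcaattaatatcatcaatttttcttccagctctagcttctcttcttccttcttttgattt

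In the conservative list 61 of the 93 members were called, or 65.6%, against 26.7% of all coding genes. By subunit these were 37 of 54 large-subunit genes (68.5%) and 24 of 39 small-subunit genes (61.5%). Replicate 1 alone called 52 members (55.9%, against 23.5% of coding genes) and replicate 2 alone called 57 (61.3%, against 21.9%). Both replicate lists called 48 members (51.6%, against 19.5%). In each list the share of members called was more than that of coding genes. No test accompanies these shares, because the design has 1 group and nothing to contrast it with.

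The summits sat close to the start. The median offset of the strongest summit was -55 bp over the 61 called members, with quartiles of -150 and -25 bp and a range of -910 to 109 bp. Over all 3729 called coding genes it was -149 bp, with quartiles of -295 and -68 bp. Thus 39 members (63.9%) had their summit within 100 bp of a start, against 23.3% of called coding genes. Summits upstream of the start made up 83.6% in members and 84.6% in all called genes, so the side was alike and the distance was shorter in members. Replicate 1 gave a median of -62 bp for members and -151 bp for all called genes. Replicate 2 gave -52 and -149.5 bp. More than 1 start is annotated for 33 of the 61 called members (54.1%) and 42.8% of called coding genes. With the annotated start of the gene as its only start, the median offset was -52 bp in members and -135 bp in all called genes. With the strongest summit required within 250 bp, 49 members (52.7%) and 16.4% of coding genes were called.

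**Figure D1:**
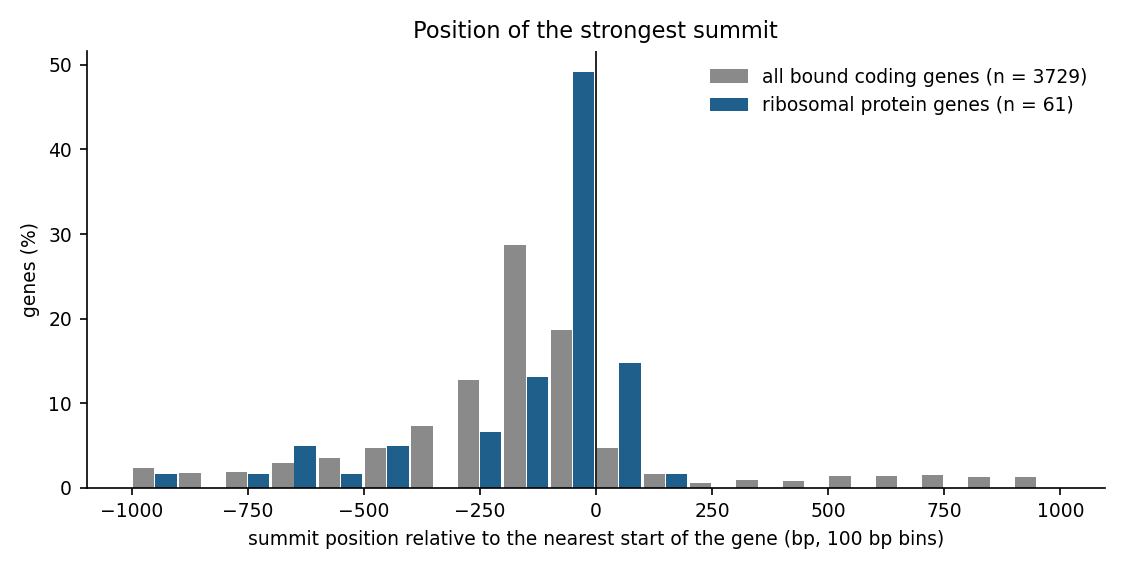
Position of the strongest conservative summit relative to the nearest start of the gene, in 100 bp bins (x axis, bp, negative upstream), as the percentage of genes (y axis) for the 61 called ribosomal protein genes (blue) and all 3729 called coding genes (grey). The bin from -100 bp to the start holds 49.2% of the members, while the fullest bin of all called genes is the one from -200 to -100 bp with 28.7%.

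The peaks of the members were of ordinary median strength, with a narrower spread. Their median score was 182, against 180 over all called coding genes. Replicate 1 gave a median of 101 against 116, and replicate 2 gave 87.7 against 94.7. In the conservative list the quartiles were 135 and 246 in members, against 110 and 338. When the conservative peaks were ranked by score and divided into 4 equal groups, the strongest group held 21 members (34.4%), and the next held 26 (42.6%). The third held 12 and the weakest only 2 (3.28%). Over called coding genes these shares were 39.3%, 27.6%, 20.4% and 12.6%. The weakest group was thus the sparsest in members, and both it and the strongest group held smaller shares than over called coding genes. The median was 185 for the large subunit and 171 for the small.

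RpL34b (FBgn0037686) stood highest, with a score of 804 in the conservative list, 454 in replicate 1 and 341 in replicate 2, at -124 bp. RpS27 (FBgn0039300) had 673, with 368 and 300 in the replicates, at -27 bp. RpL32 (FBgn0002626), widely used as a reference transcript under its older name rp49, had 598, with 326 and 267, at -150 bp. RpL23A (FBgn0026372), a protein at the exit of the nascent chain tunnel, had 569, with 315 and 253, at -98 bp. In all 4 the replicate 1 score was the higher one. RpL7 (FBgn0005593) had 556 at 31 bp inside the gene, and there replicate 2 (288) was above replicate 1 (273). RpL23A was the only one of these 5 with no other coding gene within 1000 bp of its summit.

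The scores of the next members were lower. RpS20 had 462, with 267 and 195 in the replicates, at -176 bp, and CG17271 was nearer, at 157 bp. RpL14 had 379, with 171 and 214. RpL41, which encodes a very short peptide, had 368, with 177 and 187, at -101 bp, and NaCP60E was nearer, at 81 bp. RpS28b also had 368, with 179 and 173, but its summit was at -723 bp and nearer to the start of l(1)G0320, at 150 bp. RpS21 had 333, with 173 and 156, and its summit lay 2 bp before the start. RpL28 had 314, with 179 and 131. RpLP0, the core of the stalk that engages elongation factors, had 271, with 142 and 132 at a summit 34 bp upstream. The lowest scores in the list were 64.9 at RpS15 and 79.1 at RpLP2, another stalk protein, and neither gene was in a replicate's own thresholded list.

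**Figure D2:**
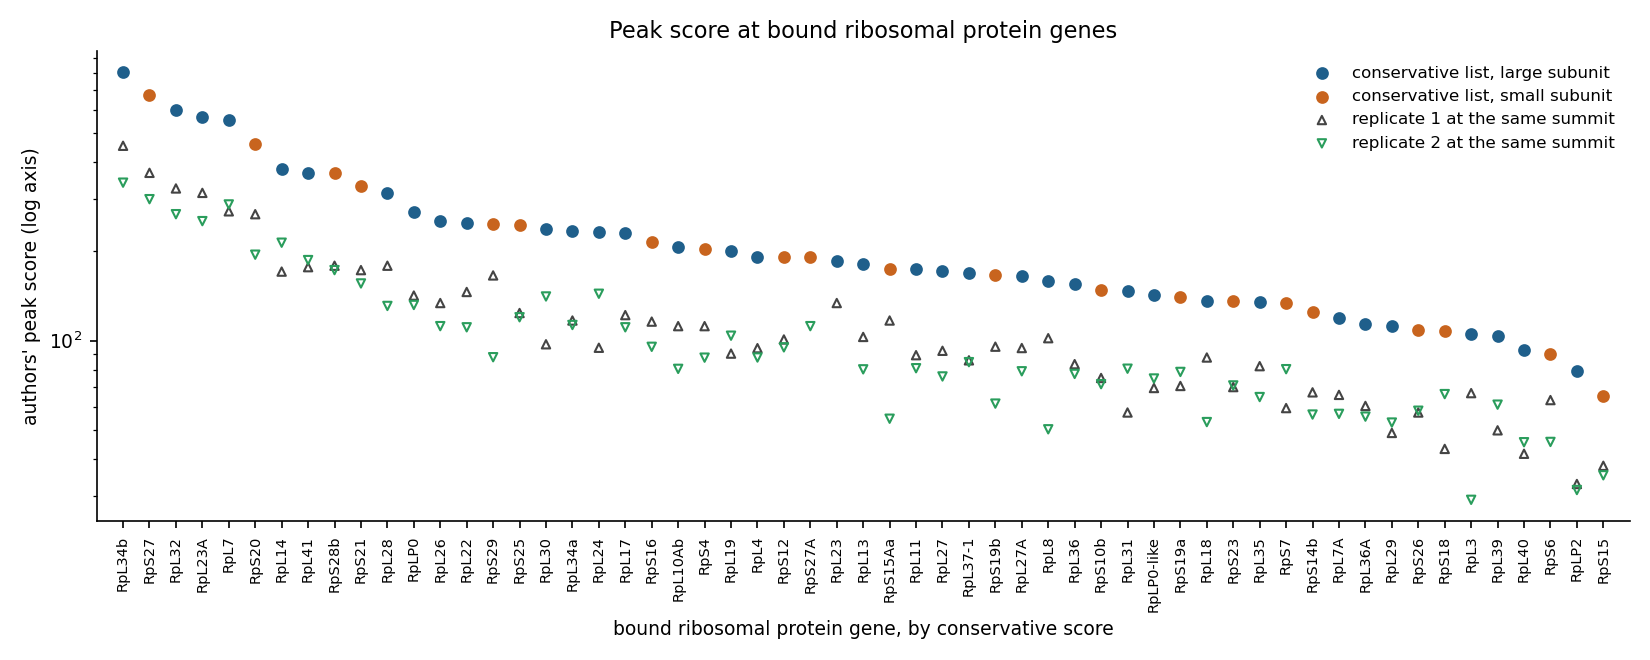
Score of the strongest conservative peak at 57 of the 61 called ribosomal protein genes (filled circles, large subunit blue, small subunit orange) with the score of each replicate's ranked peak at the same summit (open triangles), on a log axis, genes ordered by conservative score. Scores run from 804 at RpL34b to 64.9 at RpS15, and the triangles of both replicates lie below the circles.

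The replicates ranked the members alike. For 46 members the conservative summit had a thresholded summit within 100 bp in both replicates, and 36 of these scored higher in replicate 1. The ratio of replicate 1 to replicate 2 had a median of 1.13, between 0.658 at RpL24 and 2.14 at RpS15Aa. Over the 3854 conservative peaks matched in the same way it was 1.27. Across the 46 sites the log10 scores had Pearson's r = 0.90 and Spearman's rho = 0.85. These sites are not independent replicates, and IDR selects peaks whose scores agree. RpL23 and RpL39 were also in both replicate lists, but their strongest summits there lay apart. RpL23 had -272 bp in replicate 1 and -105 bp in replicate 2, and RpL39 had -10 and -637 bp. The other calls rested on fewer lists. There were 4 members, RpL3 and RpL8 among them, in the list of replicate 1 but not of replicate 2. Another 7 were in that of replicate 2 alone, among them RpL29, RpL31, RpL40, RpS18, RpS26 and RpS27A. RpL40 and RpS27A encode the fusions of a ribosomal protein to ubiquitin. RpS27A had a score of 112 at 60 bp upstream in replicate 2, and no ranked replicate 1 peak lay within 100 bp of its conservative summit.

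Among paralogues, it was mostly 1 copy that was called. The symbols give 13 pairs, of which 10 had 1 called copy, 3 had both and 0 had neither. All 16 called copies were in both replicate lists, and 0 of the 10 other copies were in either. These lists come from the same 2 libraries as the call, so this split follows largely from the call itself. Of the 26 copies 16 were called. No share of pairs with 1 called copy was computed over all coding genes. Of the 67 members outside these pairs 45 were called (67.2%). They include RpS28-like, which shares the symbol stem of RpS28a and RpS28b and was not called. RpL34a and RpL34b were both called, with scores of 235 and 804. RpLP0 and RpLP0-like had 271 and 143, although the summit at RpLP0-like, whose yeast counterpart Mrt4 is an assembly factor, was 4 bp from the start of 14-3-3zeta. RpS19a had 140 at -27 bp. RpS19b had 166, but at -910 bp, the farthest in the set, and CG5854 was nearer, at 528 bp.

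In the 10 pairs with 1 called copy, the copy not called had a weak peak in the ranked list of the replicate pair, which has no threshold. A lower score there is largely bound to the missing call, because both lists come from the same libraries. RpL22 scored 249 and RpL22-like, known for its testis expression, 42.8. RpL10Ab had 207 against 14.0 in RpL10Aa, and RpL37-1 had 169 against 11.1 in RpL37-2. RpL7 had 556 against 43.5 in RpL7-like, and RpL24 had 233 against 25.5 in RpL24-like. The counterparts of those last copies in yeast, Rlp7 and Rlp24, are assembly factors, not ribosome components. RpS28b had 368 against 51.0 in RpS28a, and RpS15Aa had 175 against 50.9 in RpS15Ab. RpS10b had 148 against 68.8 in RpS10a, and RpS14b had 125 against 67.2 in RpS14a. Of the pairs named with 1 called copy, the last had the smallest ratio of scores.

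**Figure D3:**
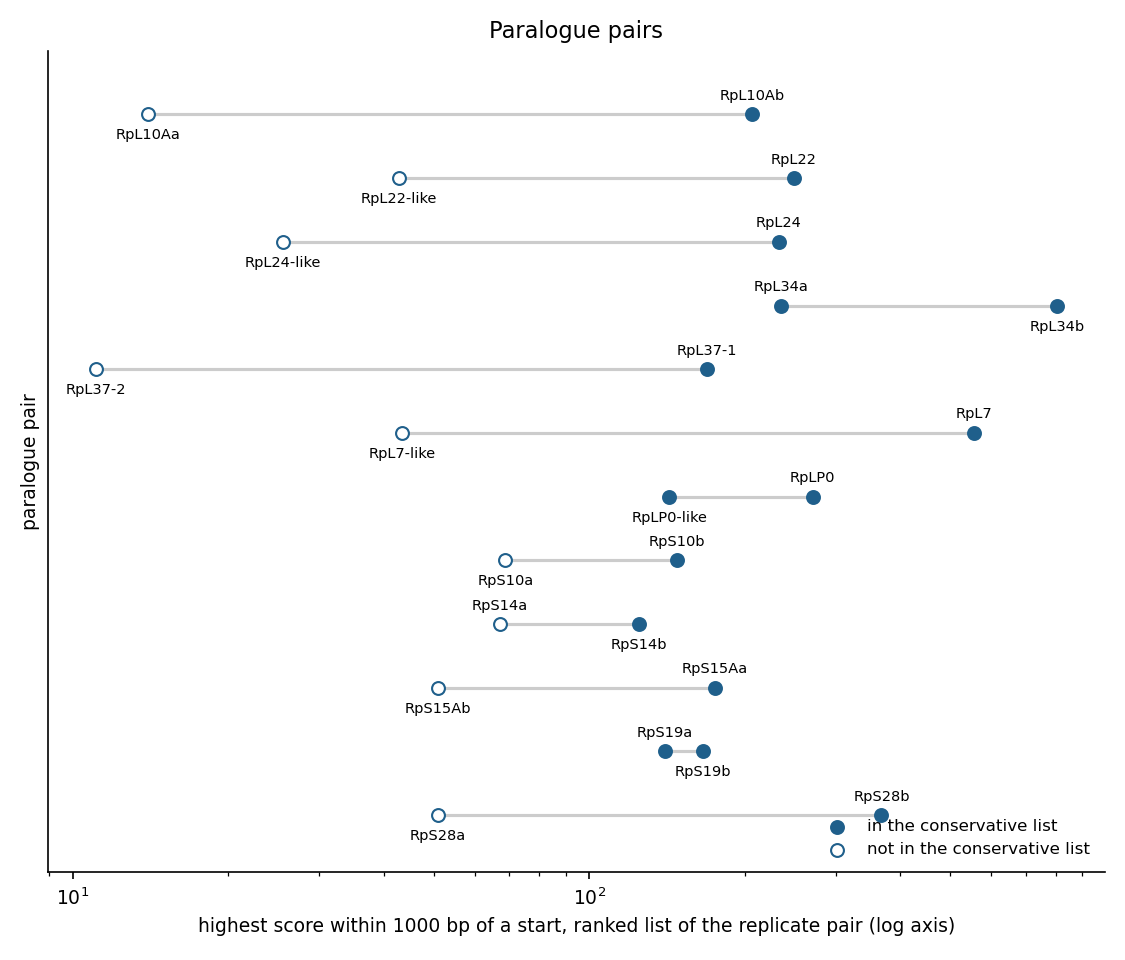
Highest score within 1000 bp of a start in the ranked list of the replicate pair (x axis, log) for both genes of 12 of the 13 paralogue pairs, filled where the gene was called in the conservative list and open where it was not. In 9 of these pairs a filled and an open circle are joined, and among those 9 the gap is narrowest at RpS14b and RpS14a, 125 and 67.2.

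RpS14a and RpS14b lie in tandem on the X with starts 1156 bp apart and encode the same protein. Their promoters are set side by side to show which copy holds a known motif. RpS14a has a DRE and a TCT initiator and was not called. The stretch of RpS14b, which was called, holds no DRE, and no TCT initiator within the set distance of the start used here. The letters TCTTTT do occur in it just beyond that distance, so the TCT difference between the printed stretches rests on the cutoff. RpS14b has a TCT initiator at its other annotated start. The summit was at base 120 in RpS14b, and in the ranked list of the pair it was at base 70 in RpS14a.

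RpS14a, chrX:7933592-7933766, plus strand: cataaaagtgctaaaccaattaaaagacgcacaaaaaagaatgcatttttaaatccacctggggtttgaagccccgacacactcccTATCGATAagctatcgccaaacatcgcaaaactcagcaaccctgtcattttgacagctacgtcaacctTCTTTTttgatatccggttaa
RpS14b, chrX:7934748-7934922, plus strand: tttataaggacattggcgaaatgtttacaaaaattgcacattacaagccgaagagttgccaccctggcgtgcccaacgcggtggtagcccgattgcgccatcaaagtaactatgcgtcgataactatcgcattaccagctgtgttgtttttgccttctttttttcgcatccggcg

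Of the 32 members not called, 24 had a peak in the ranked list of the pair, which reached 85 members in all (91.4%, against 76.7% of coding genes). RpL13A differed from the other 23. Its peak scored 191 at 58 bp upstream, with the maximum scaled IDR of 1000, and its ranked peaks in the replicates scored 94.6 and 96.4. It was in none of the thresholded lists. It was one of 123 of 6947 pair peaks with a scaled IDR of at least 830 that the conservative list does not hold. With such peaks counted, 62 members were called (66.7%, against 27.2%). The promoter of RpL13A, shown because its score is above the median of the called members, has a TCT initiator and a summit at base 93.

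RpL13A, chr3R:5624324-5624498, plus strand: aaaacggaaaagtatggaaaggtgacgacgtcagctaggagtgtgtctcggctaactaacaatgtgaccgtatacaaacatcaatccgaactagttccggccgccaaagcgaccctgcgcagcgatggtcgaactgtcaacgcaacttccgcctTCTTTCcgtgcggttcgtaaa

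The other 23 had scaled IDR values below the list minimum of 830. RpS14a came nearest with 773, and RpS10a had 629. RpS15Ab had 549, sta 463, RpL35A 418 and RpL12 408. There were 16 below 400. Just above the minimum stood RpLP2 with 885 and RpL3 with 894. By distance, RpS14a and RpS28a were nearest outside the window, at 1125 and 1326 bp from a conservative summit.

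**Figure D4:**
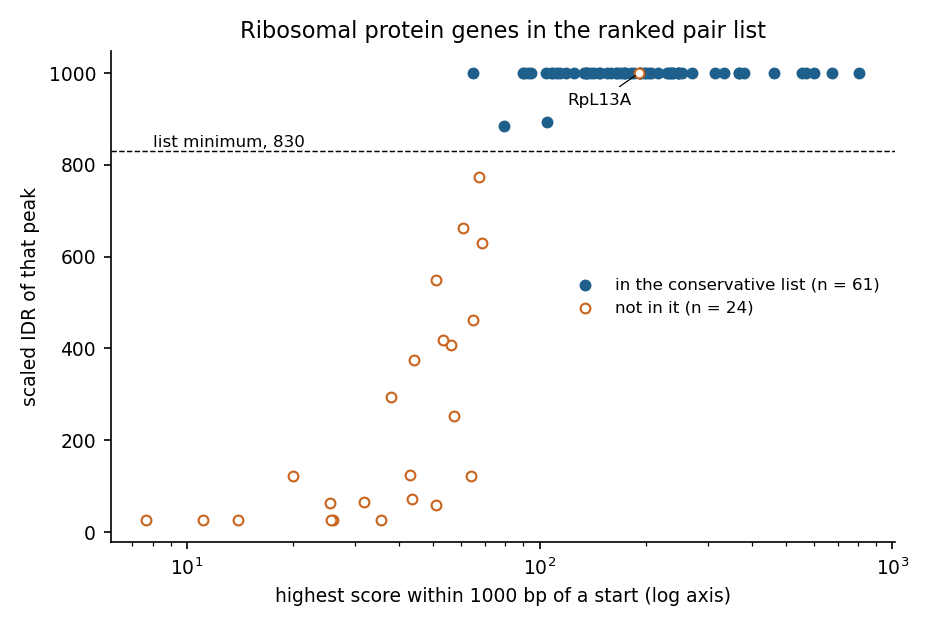
Highest score within 1000 bp of a start (x axis, log) against the scaled IDR of that peak (y axis) in the ranked list of the replicate pair, for 61 members called in the conservative list (blue) and 24 not called (open). The called members lie above the dashed list minimum of 830, and RpL13A is the only open circle there, at a score of 191.

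RpL10, RpL15, RpL21, RpL37A, RpL38, RpL5, RpS3A and RpS9 had no peak in the ranked pair list. RpL38 and RpL37A did have thresholded peaks in replicate 2, with scores of 62.7 and 39.7 at 15 and 40 bp upstream. RpL21 had one in the other thresholded list of the series, with 61.6 at 22 bp upstream; that list called 62 members (66.7%, against 28.0%). RpL15, RpL5 and RpL21 lie within 2 Mb of the centromeric end of their arms, at 0.843, 0.977 and 1.27 Mb, and 0 of the 61 called members lie so near it. The share of all coding genes called so near an arm end was not computed. Their nearest conservative summits were 3141065, 406465 and 117648 bp away. Those of RpL38, on 2R, and RpL10, on 3L, were 610483 and 216569 bp away. These genes lie 4.52 and 5.01 Mb from the arm end. The called RpL30 lies at 4.50 Mb, but on another arm, 2L. Whether equal distances compare between arms was not tested. RpL5 forms the 5S RNA particle with RpL11, which was called at a score of 175. RpS3A is on chromosome 4, where 2.50% of coding genes were called. How well reads map to these regions was not tested.

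Counts by arm varied. On the X 13 of 15 members were called (86.7%, against 28.6% of its coding genes), and RpS14a and sta were the exceptions. On 3L 11 of 14 were called (78.6%, against 26.6%) and on 2R 14 of 21 (66.7%, against 25.9%). On 3R it was 13 of 23 (56.5%, against 27.9%) and on 2L 10 of 19 (52.6%, against 25.4%). The numbers per arm are small. Many ribosomal protein genes of the fly also carry small nucleolar RNAs in their introns. Of 29 such hosts among the members 22 were called (75.9%), and of the other 64 it was 39 (60.9%). Over all coding genes, hosts or not, 26.7% were called. The shares among all hosts and all other coding genes were not computed, so the difference has no baseline.

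Many of the peaks lay between a pair of genes. A coding gene on the other strand starts within 1000 bp upstream in 56 members (60.2%, against 36.2% of coding genes). Of these 44 were called (78.6%), and of the 37 without such a neighbour 17 were (45.9%). Over all coding genes the shares were 44.4% with a neighbour and 16.7% without. The share was larger in members in both classes. For a summit within 100 bp of the gene's own start the neighbour made little difference in members, with 42.9% and 40.5%, against 11.5% and 3.24% of coding genes. In 46 of the 61 called members (75.4%) the member was the coding gene nearest to its strongest summit, and so were 70.2% of called coding genes. When each summit was given to its nearest gene alone, 52 members (55.9%) and 19.6% of coding genes were called.

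The neighbours include other genes of growth and translation. RpL28 shares its peak with eIF1, a factor in start codon selection. RpS6, the substrate of S6 kinase in growth signalling, shares a peak of score 90.1 with bys, an assembly factor of the small subunit, and bys is nearer, at 89 bp, while RpS6 has its summit at -460 bp. RpL36 shares one of score 155 with Mybbp1A. RpL13 shares a peak of score 182 with Dref, the gene of the DRE-binding factor, whose start was 29 bp from the summit and that of RpL13 55 bp. In these pairs the gene to which a peak belongs cannot be told apart.

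The DRE and motif 1 were frequent at the members' summits. In windows of 101 bp centred on the summit, the DRE (TATCGATA, either strand) occurred at 14 of 61 member peaks (23.0%). It occurred at 2.70% of the 2597 peaks within 1000 bp of a coding start and at 7.84% of the 804 within 100 bp, members included. Motif 1 (GGTCACAC) occurred at 6 member peaks (9.84%), against 1.31% and 3.23%. No window held both, and 20 members (32.8%) had one of them, against 3.93% and 10.8%. All 20 were among the 46 member peaks within 100 bp of a coding start, which makes 43.5%.

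The median distance from the summit was 14 bp for a DRE in the window and 18 bp for motif 1, values that the window itself bounds. Called members with a DRE farther off include RpL26, at 119.5 bp, and RpL10Ab, at 198.5 bp. The members with a DRE in the window include RpL19, RpL27, RpL28, RpL34a, RpL36, RpL36A, RpL37-1, RpL39, RpL41, RpS7, RpS15Aa, RpS25 and RpS29. Of these, RpL39 had its summit at -619 bp, 1 bp from the start of Rap2l, and the summit at RpL41 was nearer to NaCP60E. The members with motif 1 in the window include RpL7, RpL27A, RpL30, RpLP0 and RpS23. Their scores were not far from the rest. The median was 186 with a DRE and 182 without, and 202 with motif 1 and 182 without.

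The other motifs were also searched on both strands. The bicoid-type core TAATCC was found at 2 member peaks (3.28%), against 4.70% of peaks within 1000 bp of coding starts and 4.35% within 100 bp. The related TAAGCC was at 3 (4.92%), against 4.70% and 5.22%. Of the E-boxes, CACGTG was at 3 member peaks (4.92%, against 0.886% and 0.871%) and CAGCTG at 5 (8.20%, against 4.08% and 7.09%). TATAAA was less frequent, at 9.84%, against 23.4% and 16.3%, and so was GAGAG, at 3.28%, against 7.32% and 7.21%. Base composition moved with these shares. The windows had a GC content of 43.3% ± 10.4 (SD, n = 61) at members, 33.1% ± 10.1 (SD, n = 2597) at peaks near coding genes and 37.3% ± 10.9 (SD, n = 804) within 100 bp. Its part in the motif shares was not tested. A match is a string of letters, not a measured site, and a window without one says nothing of the factor.

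**Figure D5:**
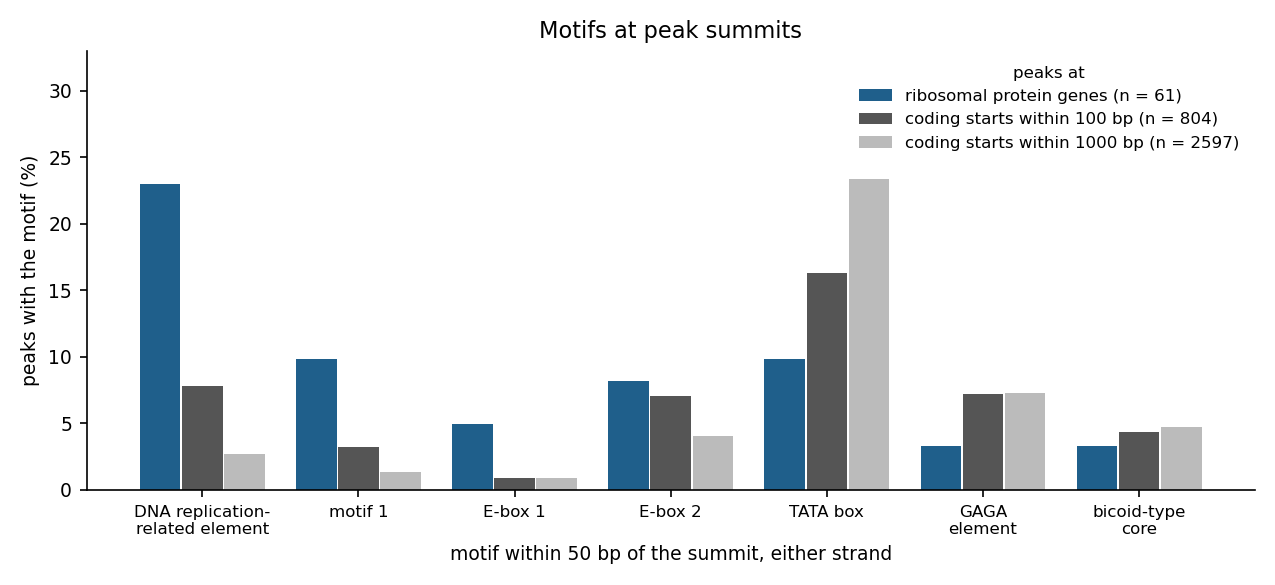
Percentage of peaks (y axis) with each motif within 50 bp of the summit, for 61 peaks of ribosomal protein genes (blue), 804 peaks within 100 bp of a coding start (dark grey) and 2597 within 1000 bp (light grey), members included. E-box 1 is CACGTG, E-box 2 is CAGCTG and the bicoid-type core is TAATCC. The DRE stands at 23.0%, 7.84% and 2.70% in that order, and the TATA box runs the other way, at 9.84%, 16.3% and 23.4%.

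The promoters of called and other members both held the motifs known from ribosomal protein genes. From 250 bases before to 50 after the start, the DRE was in 20 of 61 called members (32.8%) and 8 of 32 others, against 9.36% of all coding promoters. Motif 1 was in 14.8% and 18.8%, against 7.69%. A TCT initiator, read as TCTTTT or TCTTTC, or either with C as its first letter, on the sense strand within 5 bases of any annotated start, was found in 55 members (59.1%), against 2.13% of coding genes. It was in 39 of 61 called members and 16 of 32 others. GAGAG was in 17.2% of member promoters, against 29.7%, and in 23.0% of called and 6.25% of other members. TAATCC was in 9.68%, against 8.73%.

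The other lists from protein synthesis had lower shares than the members. Of 73 mitochondrial ribosomal protein genes 33 were called (45.2%), with a median offset of -131 bp, and 27.3% of these summits lay within 100 bp of a start. The share lies between those of the members and of all coding genes, and the median offset is nearer to the -149 bp of all called genes. Of 7 translation elongation factor genes 3 were called (42.9%). Among these eEF1gamma had a score of 416 at -31 bp and eEF1alpha1 had 305 at -68 bp. Of 24 nucleolar and assembly factor genes 14 were called (58.3%). Among them eIF6 had 2273, above every cytosolic ribosomal protein gene but below the mitochondrial mRpL41, at 3203. Of 9 genes of RNA polymerase I and growth regulators 3 were called (33.3%), near the 26.7% of all coding genes. Of 5 promoter factor genes Dref and M1BP, at 302, were called (40.0%).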

How the data were processed

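Peak lists on dm6 were deposited for each replicate and for the series, ranked and after an IDR threshold, per the file names and labels. The authors' strength score per peak has no stated unit. The scaled IDR, a second score deposited by the authors, is at least 830 in the thresholded lists. A deposited −log10 q value per peak served to break ties. No source used here names an aligner or a peak caller, and read depth is unknown. Columns that carry a value per replicate within the pair list were not used, and replicate scores came from each replicate's own list. Summits were joined to Ensembl 115 coding genes of the same assembly, and sequence was read from the RefSeq genome of that assembly. Peaks on scaffolds other than the chromosome arms were left out. The step that assigns summits was tested on simulated data, where all 200 planted genes were returned among 6000 random peaks and 13968 genes. The planted summits all lay inside the window and scored above every random peak. The simulation thus checks the code and says nothing of false calls. Members, lists, motifs and measures were chosen with earlier results of these data known. A few members enter the counts but are not reported here by name. Scores are otherwise given for the 12 highest members and the paralogue pairs. Other members in 1 replicate list and those nearest each limit are mostly named without all of their values. The sequences of RpL37-1, RpS25, RpL34a and RpL27A, and the neighbours named, were chosen after their values were seen. Windows, lists, replicates and thresholds were varied. Python 3.11.15, numpy 2.4.6, pandas 2.3.3 and matplotlib 3.10.9 were used.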

Additional observations from a re-analysis of the deposited data

Results flagged for a closer look

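RpL13A had a peak of the replicate pair with a score of 191 and a scaled IDR above the list minimum, in data outside the conservative list. RpL21 had a peak with a score of 61.6 in the other thresholded list of the series and none in the conservative one. No control sample was analysed here, so neither was set against a background level.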

How the results depend on the processing

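Of 57 alternative values, 53 stayed within the set limits. The limits were wide for counts. Small-subunit members called fell from 24 to 17 with the conservative peaks above the median score, and this was within them. The count of 61 members called lay between 47, with the conservative peaks above the median score (17.8% of all coding genes), and 67, with a wider window (33.1%). It was 52 with replicate 1 alone and 57 with replicate 2 alone, and 62 when pair peaks with a scaled IDR of at least 830 were counted, an alternative added after seeing the data. The other 4 moved. The median offset was -42 bp with a window of 250 bp, where all called genes had -117.5 bp. The median score was 204 with the peaks above the median score, where all called genes had 263. Without replicate 1 it was 87.7 and without replicate 2 it was 101, where all called genes had 94.7 and 116. These moves follow at least in part from the settings. Each replicate list carries its own, lower scores, and the other settings drop far or weak summits. No other cause was tested. Depth is unknown and there are 2 replicates, which limits every share. No paired analysis was possible because the samples form 1 group.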
